A study of Homo sapiens with 6 samples.

Results

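The 39 genes described here are those of the cellular response to low oxygen and of glycolysis, and they were chosen by name: the subunits and sensors of the hypoxia-inducible factors (HIF), a set of well-known HIF targets, the main glucose and lactate transporters, and the enzymes that carry glucose to lactate. All 39 were found among the 37887 rows of the count table, and 38 of them were among the 15450 genes with enough reads to be tested. RNA-seq was obtained from BT-549 cells, an established triple-negative breast cancer cell line, in 2 groups of 3 libraries. The sample titles name the groups as control shRNA (shCTL) and shPBRM1, while the treatment labels give DMSO for the first and doxycycline for the second. The design text of the series describes a single stable line with a tetracycline-inducible shRNA against PBRM1 that received 0.1% DMSO as the vehicle or 500 ng/ml doxycycline. By that text both groups carry the vector, 1 shRNA was used, and the silencing of PBRM1 cannot be told apart from the exposure to doxycycline or from the change of solvent. PBRM1 encodes a bromodomain subunit of PBAF, one of the SWI/SNF chromatin-remodeling complexes.

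HIF-1 and HIF-2 are each made of an oxygen-regulated alpha subunit and a constant partner. In the presence of oxygen, prolyl hydroxylases of the EGLN family modify the alpha subunit, the VHL ubiquitin ligase recognizes the modified form, and the protein is degraded. In hypoxia the alpha subunit persists, binds to short DNA elements with a core of RCGTG (hypoxia response elements), and raises the transcription of genes for blood vessel growth, acid balance, mitochondrial turnover, glucose uptake and glycolysis. This control acts mainly on HIF protein, which RNA-seq does not measure. Carcinoma cells, triple-negative breast cancer among them, often use glycolysis even where oxygen is present, so many of these genes are transcribed at a high level in cell lines.

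The libraries held between 36429395 and 65096297 counted reads. Levels are given in CPM, counts scaled to a common library size. The targeted gene was examined first. PBRM1 was counted 5870, 7619 and 8118 times in shCTL and 2598, 1591 and 2657 times in shPBRM1, which corresponds to 158 ± 2.30 and 41.9 ± 1.22 CPM (mean ± SD, n = 3), and its level fell by 73.5%. All 4 markers of a mesenchymal breast cancer line were present in every library, but not at equal levels: from shCTL to shPBRM1, VIM and CDH2 rose (log2 fold changes 0.31 and 0.54), whereas ZEB1 and FN1 fell (log2 fold changes -0.55 and -1.33). The 3 receptor genes taken as low in triple-negative breast cancer were not all absent. ESR1 was at 0 in all but 1 library. PGR was counted 12, 4 and 12 times in shCTL and 8, 2 and 0 times in shPBRM1. ERBB2 was present in every library, with 1906 to 3161 counts and a log2 fold change of -0.04. Of the other cell type markers, CD3E and HBB were at 0 in every library. The summed level of 4 epithelial markers was 12.3 to 12.5 CPM in shCTL and 73.0 to 81.8 CPM in shPBRM1, through KRT8 and KRT18, whereas CDH1 was lower and EPCAM stayed under 0.2 CPM. That of 4 leukocyte markers was 0.804 to 1.09 CPM in shCTL and 0.173 to 0.233 CPM in shPBRM1. The part of these markers in the results was not tested. In bulk RNA, fewer cells that express a gene and less RNA of it per cell cannot be told apart.

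Silencing of PBRM1 was accompanied by many changes of modest size in the hypoxia and glycolysis genes, in both directions. At an adjusted p under 0.05 (edgeR quasi-likelihood test, Benjamini-Hochberg over all genes tested), 10 members were higher and 18 lower in shPBRM1, and 10 were not called. Thus 73.7% of the members tested were called, against 64.7% of all genes tested. By direction, 26.3% of the members rose against 31.5% of all genes, and 47.4% fell against 33.2% of all genes. A fold change over 2 was reached by 4 members, NDRG1, CA9, CA12 and VEGFA, all lower and all HIF targets outside glycolysis. These were 10.5% of the members, where 9.68% of all genes passed the same rule downward. No member passed it upward, where 2.87% of all genes did. The libraries of the groups did not overlap for 27 members, 71.1% of those tested, against 68.3% of all genes. The median log2 fold change of the members was -0.06, and that of all genes tested was -0.01. These shares describe the members beside the transcriptome, and whether they differ from it was not tested.

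**Figure D1:**
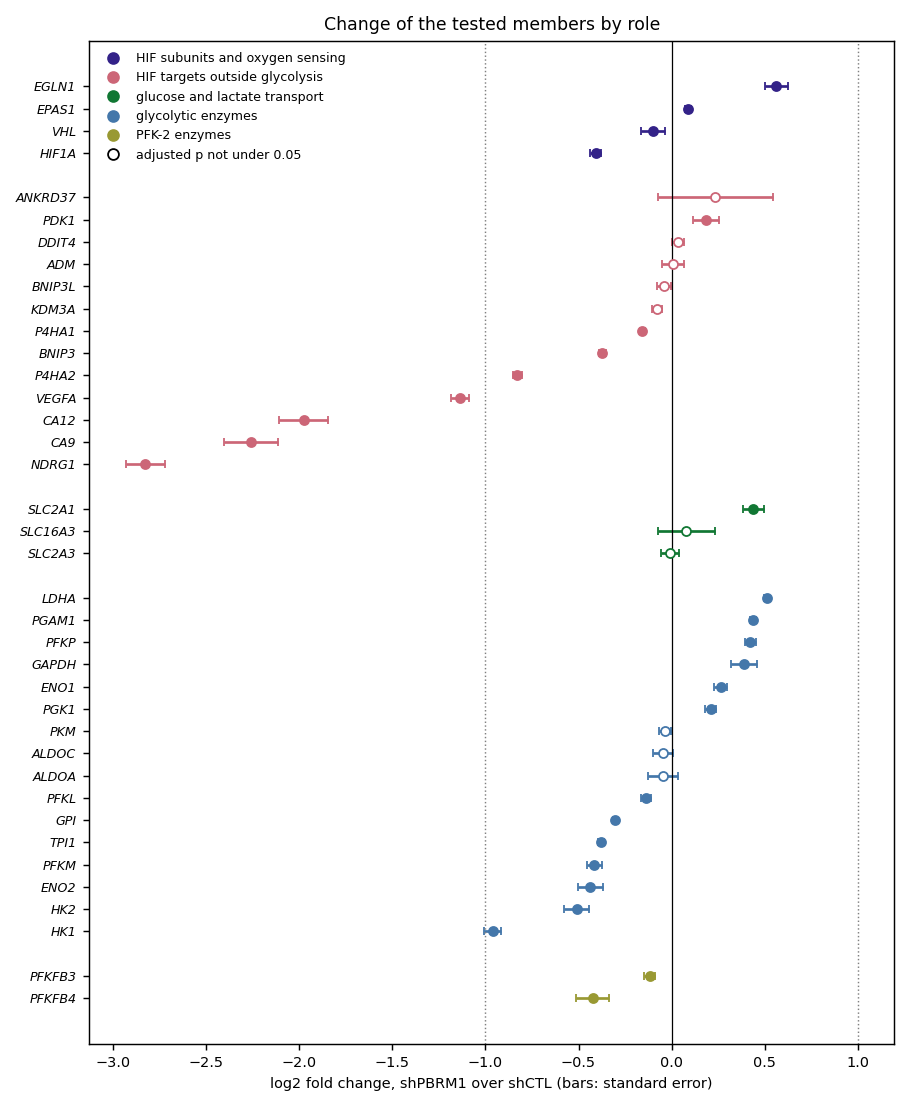
Log2 fold change of each tested member (shPBRM1 over shCTL, x axis) with its standard error, ordered by size within each role; open circles mark genes whose adjusted p was not under 0.05 and dotted lines a 2-fold change. NDRG1, CA9, CA12 and VEGFA lie left of the lower dotted line, from -2.83 to -1.14, and no member lies right of the upper one.

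HIF1A, which encodes the oxygen-regulated subunit of HIF-1, fell in shPBRM1 cells. Its level was 375, 397 and 400 CPM in shCTL and 296, 292 and 295 CPM in shPBRM1. The 3 shPBRM1 libraries lay close together and below all shCTL libraries, a difference of -0.41 ± 0.03 on the log2 scale (SE; adjusted p = 4.55e-09). EPAS1, which encodes the alpha subunit of HIF-2, stood at 166, 171 and 166 CPM in shCTL and at 180, 180 and 175 CPM in shPBRM1. Here the shPBRM1 libraries were all slightly higher, by 0.09 ± 0.02 (adjusted p = 0.0320). The call for EPAS1 was lost under library-size scaling (log2 fold change 0.04, adjusted p = 0.374), without a filter on low counts (adjusted p = 0.0644), and without shCTL replicate 1 or 3 or shPBRM1 replicate 2 or 3 (adjusted p from 0.0653 to 0.0714). Per kilobase of exon, HIF1A made up 76.7% ± 0.568 of the sum of the 2 alpha subunits in shCTL and 70.1% ± 0.397 in shPBRM1 (n = 3), with no overlap. The exact permutation p was 0.1, the smallest that 3 against 3 libraries can give.

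Among the oxygen sensors, EGLN1 (the prolyl hydroxylase PHD2) showed the largest increase of all members. Its 3 shCTL libraries lay at 9.99, 10.8 and 10.1 CPM and its 3 shPBRM1 libraries at 15.9, 14.1 and 15.6 CPM. The groups were clearly apart, and the log2 fold change was 0.56 ± 0.06 (adjusted p = 8.37e-07). EGLN3, the hydroxylase PHD3 and itself a known HIF target, was at the edge of detection, with counts of 1, 3 and 4 in shCTL and 4, 3 and 3 in shPBRM1, so it was not tested and no fold is given. VHL, the substrate receptor of the ligase, was at 106, 103 and 105 CPM in shCTL and at 90.2, 96.8 and 105 CPM in shPBRM1. The third shPBRM1 library lay within the shCTL range, and the groups overlapped. Its log2 fold change of -0.10 ± 0.06 (adjusted p = 0.0388) was not called without shPBRM1 replicate 1 (-0.04, adjusted p = 0.395), without shPBRM1 replicate 2 (adjusted p = 0.109), without shCTL replicate 1 (adjusted p = 0.0941), 2 (adjusted p = 0.0575) or 3 (adjusted p = 0.102), with DESeq2 (adjusted p = 0.117) or with RLE factors (adjusted p = 0.0521). The partner subunit ARNT had a log2 fold change of 0.08 (adjusted p = 0.0714) and HIF1AN, the asparaginyl hydroxylase that limits HIF activity, one of -0.07 (adjusted p = 0.122), and neither passed the test.

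The HIF targets outside glycolysis held the largest changes. Of 13 targets tested, 7 fell, 1 rose and 5 were not called, with a median log2 fold change of -0.16. The share called was 61.5%, against 64.7% of all genes tested, while 53.8% fell and 7.69% rose, against 33.2% and 31.5% of all genes. Their summed level was 2149 ± 25.3 CPM in shCTL and 1708 ± 19.6 CPM in shPBRM1, a ratio of 0.795. Most of this difference lay in the abundant VEGFA (397 and 180 CPM) and P4HA2 (240 and 135 CPM). NDRG1, a hypoxia- and stress-induced gene linked to growth arrest and differentiation, changed most. It stood at 52.9, 52.4 and 55.9 CPM in shCTL and at 8.63, 6.94 and 7.03 CPM in shPBRM1. No shPBRM1 library came near the shCTL range, the level fell by 85.9%, and the log2 fold change was -2.83 ± 0.11 (adjusted p = 7.30e-20). Only 1.8% of all genes tested had a lower log2 fold change.

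The 2 cell-surface carbonic anhydrases, which hydrate carbon dioxide outside the cell and so help hypoxic cells to export acid, fell together. CA9, often used as a marker of HIF-1 activity in tumours, was at 9.08, 9.17 and 10.5 CPM in shCTL and at 1.82, 2.42 and 1.88 CPM in shPBRM1. All 3 shPBRM1 libraries were low, the level fell by 79.1%, and the log2 fold change was -2.26 ± 0.14 (adjusted p = 1.23e-13). CA12 was at 35.4, 36.2 and 36.1 CPM in shCTL and at 9.99, 7.48 and 9.60 CPM in shPBRM1. The second shPBRM1 library was the lowest, none overlapped with shCTL, and the log2 fold change was -1.98 ± 0.13 (adjusted p = 3.56e-16). Within the pair the share of CA9 per kilobase of exon was 53.8% ± 1.89 in shCTL and 49.7% ± 7.76 in shPBRM1, with overlapping libraries (exact permutation p = 0.4). In the GENCODE annotation, 38.5% of the exon bases of CA9 lie opposite to exons of ARHGEF39, whose own log2 fold change was 0.65, and whether the counting used strand is not given in the sources used here.

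VEGFA, the main growth factor for blood vessels, was the most abundant of the 4 genes past 2-fold. It was at 408, 402 and 382 CPM in shCTL and at 178, 190 and 173 CPM in shPBRM1. The groups lay far apart, and the level fell by 54.6% (log2 fold change -1.14 ± 0.05, adjusted p = 1.34e-16). The 2 collagen prolyl 4-hydroxylase subunits fell to unequal degrees. P4HA2 was at 238, 245 and 239 CPM in shCTL and at 139, 133 and 133 CPM in shPBRM1, a log2 fold change of -0.83 ± 0.02 (adjusted p = 1.80e-15), and P4HA1 changed by -0.16 ± 0.01 (adjusted p = 9.24e-04). The share of P4HA1 in the pair, per kilobase of exon, was accordingly 79.6% ± 0.417 in shCTL and 86.1% ± 0.174 in shPBRM1, without overlap (exact permutation p = 0.1).

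BNIP3 and BNIP3L encode receptors that mark mitochondria for autophagy. BNIP3 fell from 64.4 ± 1.25 to 49.8 ± 0.0619 CPM (log2 fold change -0.37, adjusted p = 1.47e-08). BNIP3L was at 268 ± 5.03 and 261 ± 11 CPM with overlapping libraries (log2 fold change -0.04, adjusted p = 0.395). PDK1, the kinase that inactivates pyruvate dehydrogenase, was the only one of the 13 targets grouped here that rose. It went from 37.5 ± 2.54 to 42.5 ± 2.19 CPM (log2 fold change 0.18, adjusted p = 0.00533), and 1 shCTL library lay within the shPBRM1 range. This does not hold for hypoxia targets in general, since 13 of the 34 further ones described below rose. DDIT4, ADM, KDM3A and ANKRD37, like BNIP3L, did not pass the test. DDIT4 (REDD1), an inhibitor of mTORC1, had the highest level of the targets per kilobase of exon, at 316 CPM per kilobase in shCTL and 323 in shPBRM1, and its log2 fold change was 0.03 ± 0.03. The vasodilator peptide gene ADM stood at 11 ± 0.735 and 11.1 ± 0.279 CPM. The histone demethylase gene KDM3A was lower in all 3 shPBRM1 libraries, at 40.0 ± 1.15 and 37.8 ± 0.643 CPM, with an adjusted p of 0.163. ANKRD37 was under 1 CPM throughout, so a difference could not be resolved at this depth (log2 fold change 0.24 ± 0.31), and 35.2% of its exon bases lie opposite to exons of UFSP2.

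**Figure D2:**
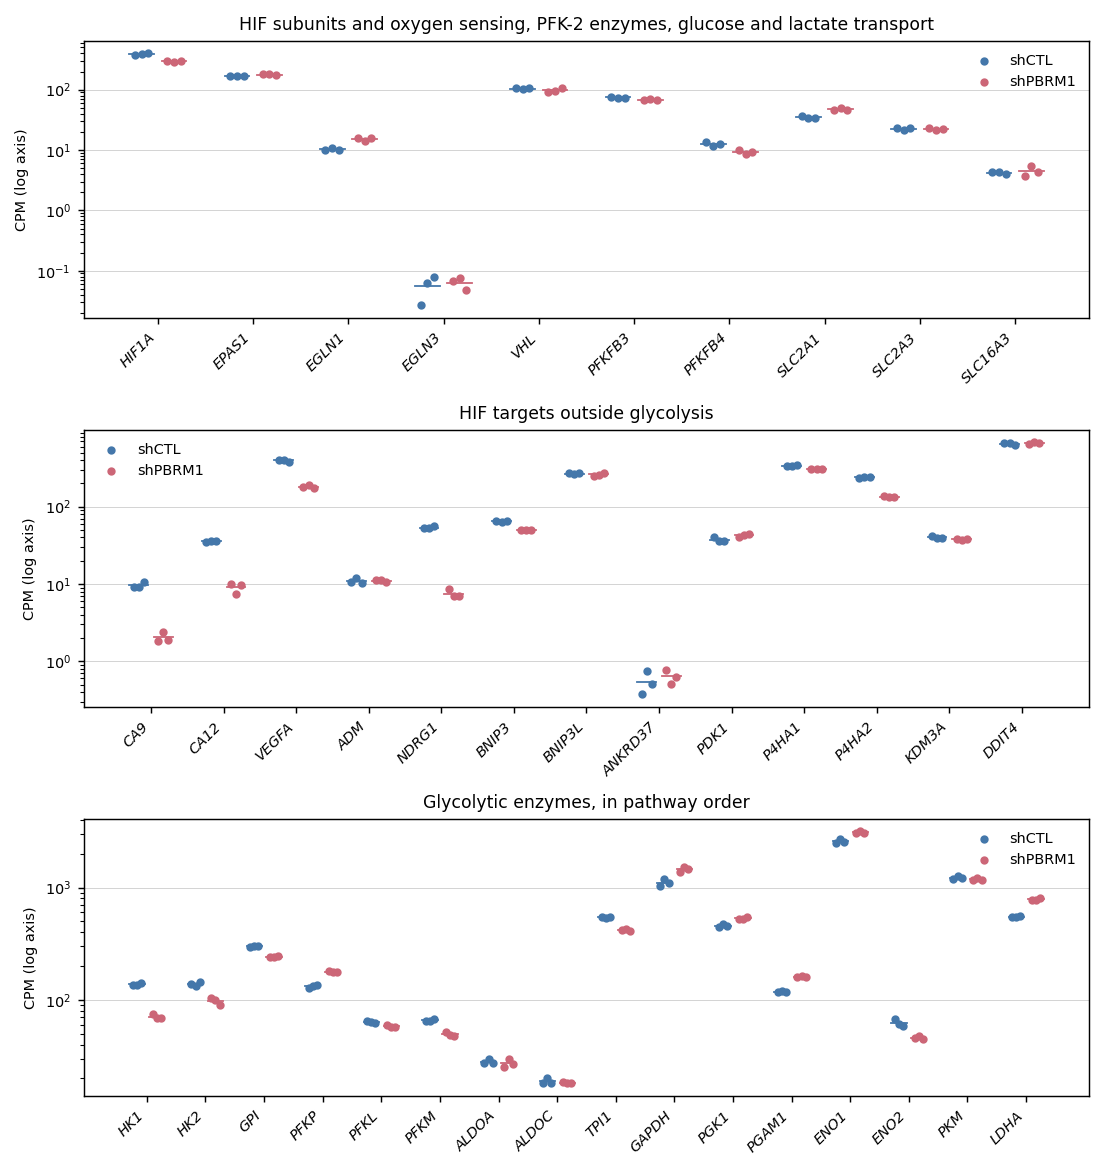
Level of each member in every library, in CPM on a log axis, with shCTL in blue, shPBRM1 in red and the group mean as a short line. NDRG1, CA9, CA12 and VEGFA are separated by more than 2-fold, EGLN3 lies near 0.1 CPM or lower in all libraries, and most glycolytic enzymes show small gaps between tight groups.

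Sequence around a RefSeq gene start is shown for 5 members that differ in their response: CA9, CA12 and P4HA2, which fell, and LDHA and PGAM1, the glycolytic enzymes that rose most. Each window runs from 250 bases before to 50 bases after a RefSeq gene start (GRCh38.p14), and capitals mark each match to the core letters ACGTG or GCGTG on either strand, with overlapping matches joined.
CA9 (chr9:35673678-35673977, plus strand): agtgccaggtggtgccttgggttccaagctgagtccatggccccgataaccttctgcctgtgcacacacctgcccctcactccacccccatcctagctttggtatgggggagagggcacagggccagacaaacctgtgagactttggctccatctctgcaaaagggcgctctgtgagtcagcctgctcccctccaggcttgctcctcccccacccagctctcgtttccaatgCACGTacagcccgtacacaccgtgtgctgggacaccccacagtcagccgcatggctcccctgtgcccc
CA12 (chr15:63381797-63382096, minus strand): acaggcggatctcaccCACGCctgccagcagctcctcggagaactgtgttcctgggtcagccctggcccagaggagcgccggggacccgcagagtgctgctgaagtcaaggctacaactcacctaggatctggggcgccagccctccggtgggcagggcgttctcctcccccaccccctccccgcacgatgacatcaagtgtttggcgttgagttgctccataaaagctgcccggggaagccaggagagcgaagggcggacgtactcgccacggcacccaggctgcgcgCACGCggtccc
P4HA2 (chr5:132227042-132227341, minus strand): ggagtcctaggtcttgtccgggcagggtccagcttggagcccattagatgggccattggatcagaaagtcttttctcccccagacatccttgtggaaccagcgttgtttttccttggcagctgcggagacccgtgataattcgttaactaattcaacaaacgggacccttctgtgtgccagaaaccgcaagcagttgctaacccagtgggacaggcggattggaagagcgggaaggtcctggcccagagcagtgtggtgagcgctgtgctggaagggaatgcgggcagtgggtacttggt
LDHA (chr11:18394313-18394612, plus strand, the first of its 2 windows): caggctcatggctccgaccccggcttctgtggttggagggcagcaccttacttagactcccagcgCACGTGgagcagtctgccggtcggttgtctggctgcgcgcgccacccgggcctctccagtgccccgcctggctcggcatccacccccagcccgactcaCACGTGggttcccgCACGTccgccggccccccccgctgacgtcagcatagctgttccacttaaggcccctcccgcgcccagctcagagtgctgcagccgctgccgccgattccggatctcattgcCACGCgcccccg
PGAM1 (chr10:97427568-97427867, plus strand): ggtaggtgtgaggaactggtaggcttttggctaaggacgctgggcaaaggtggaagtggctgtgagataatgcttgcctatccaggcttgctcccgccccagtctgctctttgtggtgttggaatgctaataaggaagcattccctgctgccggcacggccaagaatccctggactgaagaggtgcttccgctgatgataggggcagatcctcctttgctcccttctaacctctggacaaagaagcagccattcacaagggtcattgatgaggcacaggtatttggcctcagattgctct
The CA9 window held 1 match, which begins 18 bases before the start, and the CA12 window held 2. The LDHA window held 4 stretches, while those of P4HA2 and PGAM1 held none. In these windows, matches were thus present and absent both among members that fell and among members that rose. Both windows without a match lie inside the gene as annotated by GENCODE v29. PGAM1 begins there at 97426160, and P4HA2, on the minus strand, at 132295315. The absence of a match in these 2 windows therefore does not describe the sequence at the annotated 5' ends. Windows were found for 34 members. At least 1 window with ACGTG was present for 58.8% of them, against 24.9% of all symbols with a window, and with GCGTG for 61.8% against 40.6%. Members had more windows each than other symbols. Counted by single window, ACGTG was present in 38.7% of 62 member windows and in 21.4% of all 35116 windows, and GCGTG in 41.9% and 36.5%. These letters occur often by base composition, a match is not evidence of binding, and many of these members are known as HIF targets by their choice.

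Uptake of glucose and export of lactate are represented by 3 transporters. SLC2A1, which encodes the basal glucose transporter GLUT1, was at 36.9, 33.4 and 33.8 CPM in shCTL and at 45.5, 48.8 and 46.8 CPM in shPBRM1. All 3 shPBRM1 libraries were higher, and SLC2A1 rose by 0.44 ± 0.05 on the log2 scale (adjusted p = 7.53e-08). SLC2A3 (GLUT3) was at 22.6 ± 0.995 and 22.5 ± 0.825 CPM and SLC16A3 (the lactate exporter MCT4) at 4.21 ± 0.183 and 4.49 ± 0.804 CPM, and for both the libraries overlapped and no difference was called. The share of SLC2A1 in the GLUT pair, per kilobase of exon, was 66.7% ± 1.33 in shCTL and 73.2% ± 1.40 in shPBRM1, without overlap (exact permutation p = 0.1).

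The glycolytic enzymes changed in both directions. Of 16 enzymes, 6 rose, 7 fell and 3 were not called, and none passed a fold change of 2. These were 37.5% higher and 43.8% lower, where 31.5% and 33.2% of all genes were. The hexokinases, glucose phosphate isomerase, 2 of the 3 phosphofructokinases and triose phosphate isomerase fell. Glyceraldehyde phosphate dehydrogenase and most of the later steps rose. The third phosphofructokinase, PFKP, rose and was the leading form, at 63.0% of the 3 forms per kilobase of exon in shCTL. The contrast of early and late steps was read from the values after they were seen and has no test. PFKP among the early steps and ENO2 among the late ones went against it, and the aldolases and PKM were not called. HK1, a hexokinase, showed the largest change of the enzymes. It was at 136, 137 and 141 CPM in shCTL and at 75.0, 68.8 and 68.7 CPM in shPBRM1. The groups were far apart, and the log2 fold change was -0.96 ± 0.04 (adjusted p = 2.31e-16). Under scaling by library size alone it was -1.01, past the 2-fold line. HK2, the hexokinase that is often induced in tumours, fell by less, from 139 ± 6.0 to 97.8 ± 6.5 CPM (log2 fold change -0.51 ± 0.07, adjusted p = 4.12e-10). In shCTL the hexokinases had nearly equal levels per kilobase of exon, 21.9 for HK1 and 22.9 for HK2 in CPM per kilobase, and the share of HK1 was 48.9% ± 0.733 there and 41.1% ± 1.07 in shPBRM1 (exact permutation p = 0.1).

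GPI, which converts glucose 6-phosphate to fructose 6-phosphate, fell from 299 ± 3.61 to 243 ± 1.09 CPM (log2 fold change -0.30, adjusted p = 1.58e-07). The phosphofructokinases, which catalyse the committed step, moved apart. The platelet form PFKP rose from 133 ± 3.94 to 178 ± 3.13 CPM (log2 fold change 0.42 ± 0.03, adjusted p = 4.04e-10). The muscle form PFKM fell from 65.6 ± 1.58 to 49.2 ± 2.16 CPM (log2 fold change -0.42 ± 0.04, adjusted p = 8.78e-09), and the liver form PFKL changed by -0.14 ± 0.03 (adjusted p = 0.00384). PFKP was already the leading form: per kilobase of exon it made up 62.2%, 63.3% and 63.4% of the 3 forms in shCTL and 73.1%, 73.7% and 73.8% in shPBRM1. This gain of 10.6 percentage points was the largest shift within any of the families examined, and PFKL and PFKM changed by -3.43 and -7.14 points, each without overlap (exact permutation p = 0.1). The bifunctional PFK-2 enzymes, which make and remove the allosteric activator of phosphofructokinase, were both lower. PFKFB4 fell from 12.7 ± 1.07 to 9.38 ± 0.651 CPM (log2 fold change -0.42 ± 0.09, adjusted p = 1.29e-04), and PFKFB3, at 74.5 ± 0.856 and 68.6 ± 2.19 CPM, changed by -0.12 ± 0.03 (adjusted p = 0.00650).

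**Figure D3:**
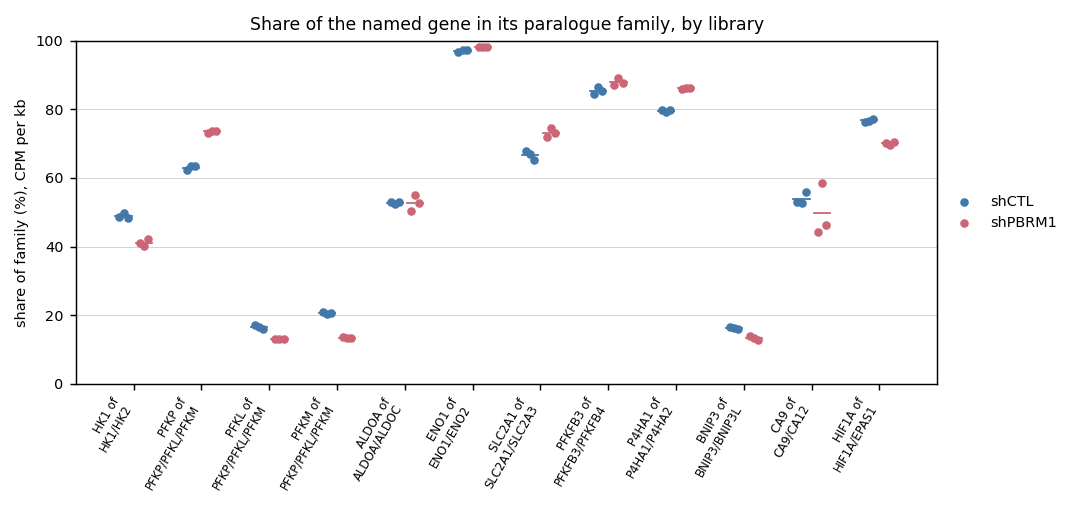
Share of the named gene in its paralogue family in each library, in percent of the family's CPM per kilobase of exon, with shCTL in blue, shPBRM1 in red and group means as lines. The groups are apart for all families drawn except ALDOA with ALDOC and CA9 with CA12, and the widest gap is that of PFKP.

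The aldolases were not called. ALDOA was at 28.2 ± 1.39 and 27.4 ± 2.23 CPM and ALDOC at 18.9 ± 1.18 and 18.3 ± 0.339 CPM. At 7.20 CPM per kilobase in shCTL, ALDOA stood far below its neighbours in the pathway, such as TPI1 at 201 and GAPDH at 371 CPM per kilobase, and 42.3% of its exon bases are shared on the same strand with the annotated gene AC093512.2, so its count is uncertain. TPI1, the isomerase of the triose phosphates, fell from 544 ± 7.18 to 418 ± 6.42 CPM (log2 fold change -0.38 ± 0.02, adjusted p = 8.94e-09).

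From GAPDH onward the direction was mostly upward. GAPDH, the oxidizing step of glycolysis, was at 1035, 1185 and 1099 CPM in shCTL and at 1378, 1519 and 1453 CPM in shPBRM1. All shPBRM1 libraries were higher, the second library was the highest of each group, and the log2 fold change was 0.39 ± 0.07 (adjusted p = 4.60e-08). PGK1, the first step that yields ATP, rose from 459 ± 12.2 to 531 ± 11.6 CPM (log2 fold change 0.21, adjusted p = 6.83e-05). PGAM1, the phosphoglycerate mutase, rose from 118 ± 1.68 to 160 ± 1.70 CPM (log2 fold change 0.44 ± 0.01, adjusted p = 8.16e-11). These genes have many processed pseudogenes, and the rows of named pseudogenes held 0.831% of the GAPDH count over 62 rows and 0.877% of the PGAM1 count over 13 rows.

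The enolases went in opposite directions. ENO1, the ubiquitous form and the most abundant member per kilobase of exon in shCTL (490 CPM per kilobase), rose from 2584 ± 107 to 3101 ± 57.3 CPM (log2 fold change 0.26 ± 0.04, adjusted p = 1.05e-07). ENO2, the neuron-type form that is also a HIF target, fell from 62.5 ± 4.52 to 46.2 ± 1.45 CPM (log2 fold change -0.44 ± 0.06, adjusted p = 3.43e-08). Since ENO2 was the minor form, the share of ENO1 changed only from 97.1% ± 0.264 to 98.2% ± 0.0228. PKM, the pyruvate kinase gene, showed the smallest change of the enzymes. It was at 1197, 1263 and 1209 CPM in shCTL and at 1178, 1227 and 1171 CPM in shPBRM1. The libraries overlapped, and the log2 fold change of -0.04 ± 0.03 was not called (adjusted p = 0.364). The counts are per gene and do not separate the PKM1 and PKM2 isoforms.

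LDHA, the dehydrogenase subunit that favours the reduction of pyruvate to lactate, was at 552, 547 and 555 CPM in shCTL and at 776, 781 and 800 CPM in shPBRM1. The groups were tight and far from each other, and LDHA had the largest increase among the enzymes, 0.51 ± 0.01 on the log2 scale (adjusted p = 2.40e-11). Summed over the 16 enzymes, the level was 7359, 7774 and 7467 CPM in shCTL and 8321, 8588 and 8365 CPM in shPBRM1, a ratio of 1.12. ENO1, GAPDH and PKM carried 65.2% ± 0.978 of this sum in shCTL and 68.2% ± 0.582 in shPBRM1, and the other 13 enzymes summed to 2620 ± 8.77 and 2682 ± 5.22 CPM. The sum therefore followed 2 abundant genes, ENO1 and GAPDH, and the median log2 fold change over the 16 enzymes was -0.05.

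Genes next to these pathways were read from 7 further lists, by counts, beside the 31.5% of all genes that rose and the 33.2% that fell; no difference from these shares was tested. Of 16 other regulators of the HIF pathway, 4 rose (25%) and 8 fell (50%). The 1 past 2-fold was ARNT2, an alternative partner subunit, which fell from 3.41 ± 0.0673 to 0.720 ± 0.115 CPM (log2 fold change -2.27, adjusted p = 1.50e-10). Of 34 further hypoxia targets, 13 rose (38.2%) and 15 fell (44.1%), with a median of -0.01. Only the chemokine receptor gene CXCR4 passed 2-fold there, with counts of 8, 14 and 12 in shCTL and 0, 4 and 10 in shPBRM1. Its libraries are close to the floor of 3 counts, and its adjusted p was 0.0474. CXCR4 passed the filter on low counts through shCTL, so the size of its change is uncertain.

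Of 18 isozymes and side-branch genes of glycolysis, 6 rose (33.3%) and 7 fell (38.9%). HKDC1, a further hexokinase gene, was counted 126, 143 and 183 times in shCTL and 5, 2 and 11 times in shPBRM1, with 1 shPBRM1 library under the floor of 3 counts and another near it. It passed the filter on low counts through shCTL, so the size of its fitted log2 fold change of -4.88 (adjusted p = 5.08e-13) is uncertain. The facilitative hexose transporters SLC2A10 and SLC2A12 fell as well, with log2 fold changes of -2.85 and -1.51, and both were under 2 CPM on average. SLC2A10 also passed that filter through shCTL, with 12, 8 and 10 counts in shPBRM1, so the size of its change is uncertain. HKDC1, SLC2A10 and SLC2A12 were minor beside the members of the same function: HKDC1 stood at 0.778 CPM per kilobase of exon in shCTL.

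Of 14 genes of pyruvate entry into mitochondria, 10 rose (71.4%) and 4 fell (28.6%), with a median of 0.28. The list also holds regulators: those that rose include PDK2 and PDK3 (0.37 and 0.51), relatives of the inactivating kinase PDK1. The summed level of the list overlapped between the groups, at 942 to 954 CPM in shCTL and 943 to 963.5 CPM in shPBRM1. Of 16 genes of the tricarboxylic acid cycle, 12 rose (75.0%) and 1 fell (6.25%), with a median of 0.19. The 1 gene of both lists past 2-fold was PCK2, the mitochondrial phosphoenolpyruvate carboxykinase, which fell from 135 ± 3.34 to 66.5 ± 2.43 CPM (log2 fold change -1.02, adjusted p = 2.92e-17). In the pentose phosphate pathway 1 of 7 genes rose (14.3%) and 2 fell (28.6%). Of 17 regulators of glucose and growth sensing, 6 rose (35.3%) and 9 fell (52.9%). The most abundant of those past 2-fold was TXNIP, a glucose-induced inhibitor of glucose uptake, at 289, 295 and 290 CPM in shCTL and 70.1, 71.3 and 68.4 CPM in shPBRM1. All shPBRM1 libraries were far below shCTL, a change of -2.06 on the log2 scale (adjusted p = 6.86e-23). The stress-induced SESN3, the DDIT4 relative DDIT4L and the mitochondrial coactivator PPARGC1A also fell past 2-fold, with log2 fold changes of -2.24, -1.47 and -1.88, from less than 2 CPM each. DDIT4L was counted 18, 22 and 15 times in shCTL and 18, 2 and 4 times in shPBRM1, and its libraries overlapped in CPM. SESN3 was counted 16, 8 and 14 times in shPBRM1. Both SESN3 and DDIT4L passed the filter on low counts through shCTL, so the size of their changes is uncertain.

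**Figure D4:**
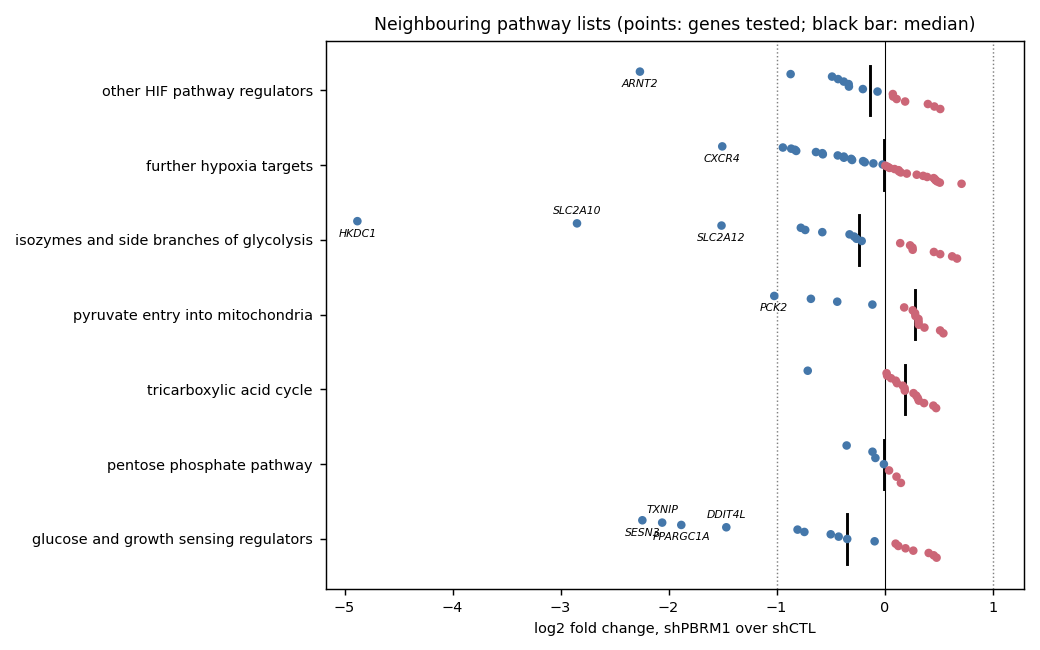
Log2 fold change (shPBRM1 over shCTL) of each tested gene in 7 neighbouring lists, sorted within its list, with values below 0 in blue, values above 0 in red, and a black bar at the median. Genes past 2-fold (dotted lines) are named and all lie to the left, and the medians of pyruvate entry (0.28) and of the tricarboxylic acid cycle (0.19) lie to the right of 0. HKDC1, SLC2A10, SESN3, DDIT4L and CXCR4 passed the filter on low counts through shCTL, so the size of their change is uncertain.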

How the data were processed

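Stranded mRNA libraries were sequenced from 3 cultures of BT-549 cells per group. The authors deposited raw read counts per gene symbol in 1 table; per the labels, CASAVA 1.8.2, STAR 2.7.9a, featureCounts, DESeq2 1.24.0 and the build GRCh38.p7 were used, with no role given for each, and the annotation, the strand setting and the treatment of reads with several positions are not given in the sources used here. The control columns do not name the shRNA, and were matched to the shCTL titles by cell line, replicate number and the absence of the shPBRM1 label. In 14 rows a date stands in place of a symbol; none is a member.

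Here the counts were fitted as deposited with edgeR 4.0.16 (R 4.3.3; TMM factors, filterByExpr, glmQLFit and glmQLFTest, no covariate), with Benjamini-Hochberg adjustment over 15450 genes and a threshold of 0.05. CPM used TMM-scaled library sizes, log2 fold changes are those of the fit, and SE is the standard error of the difference between group means of log2 CPM with a prior count of 2. Levels per kilobase used the union of GENCODE v29 exons, and shares were compared by 2-sided exact permutation tests. The floor of 3 counts equals 0.0471 to 0.0804 CPM. Replicates of a group differed by more than counting error (chi-square per degree of freedom 4.92 to 24.9). The code was tested on simulated counts that were independent between libraries. Such counts lack the shared deviations described below, so that check does not bear on the calls made here.

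The members and lists were chosen with earlier results of these data known. All members are named; of other lists, genes past 2-fold were named, with ARNT and HIF1AN whatever their values. No source says that the cultures were independent, so the spread may be technical. Same-numbered libraries deviated together over 5622 genes (correlations 0.734, 0.593 and 0.419), so the numbers may pair them, although shCTL 2 and shPBRM1 3 also correlated (0.464). The main fit, the SE and the permutation tests did not use this pairing. Only the replicate block, an alternative, used it. shPBRM1 replicate 1 differed most from its group (chi-square per degree of freedom 21.5 and 24.9, against 7.20 for the other pair). Alternatives were DESeq2 1.42.0, RLE, upper-quartile and library-size scaling, filters, the replicate block and leaving out each library.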

Additional observations from a re-analysis of the deposited data

How the results depend on the processing

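Of the 28 called members, 26 kept direction and call under each of the 13 or 14 alternatives run for them, including each library left out, and the exceptions were EPAS1 and VHL. No called member changed sign. The number of members called stayed within 1.5 times its value throughout. With the replicate block, 10 members were higher and 18 lower, as without it, and the log2 fold change of HK1 was -0.96; the block changed no member's call. Scaling by library size alone moved the median of all genes from -0.01 to -0.06, gave 43.4% in place of 48.6% of calls as higher, and called KDM3A (-0.13) and PKM (-0.09) lower. Members near 0 changed sign without a call: under library-size scaling ADM (-0.04) and DDIT4 (-0.0163), and with a mean of at least 50 counts ADM (-0.0019). With 1 library left out, the log2 fold change ranged from -0.032 to 0.0649 for ADM, from -0.0433 to 0.0237 for SLC2A3, from -0.0425 to 0.2005 for SLC16A3, from -0.1009 to 0.0095 for ALDOA and from -0.0743 to 0.009 for ALDOC, and the median of the HIF subunits and sensors from -0.0294 to 0.0217. The change in share ranged from -1.18 to 1.14 percentage points for ALDOA with ALDOC and from -0.00301 to 0.249 for EGLN1 with EGLN3. The cause was not tested. EGLN3 and ANKRD37 are limited by depth.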
